A study of Mus musculus with 16 samples.

Results

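The genes of interleukin, tumour necrosis factor (TNF) and colony-stimulating factor signalling were examined in whole colon tissue of C57BL/6 mice. Members were chosen by gene symbol: interleukins, the TNF superfamily and its TRAF adaptors, colony-stimulating factors, Ifng, Osm and Lif, with the receptors whose symbols start in the same way, and the Socs, Jak, Nfkb and Rel genes. The interleukin 1 and interleukin 17/22/23 genes named in the rule and the receptor Csf3r were set aside. Of 89 symbols that matched, 12 were set aside in this way, which left 77 genes of the 5171 in the deposited tables. They comprised 15 interleukins and growth factors and 10 TNF family ligand genes (with an antisense and a read-through gene). There were 25 interleukin and growth factor receptors and 10 TNF receptor family genes. The others were 5 kinases and adaptors, 4 genes of the NF-kB family, 4 Socs genes and 4 Tnfaip genes.

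RNA-seq was performed on wild type (WT) mice and on mice with a Vil-Cre mediated knockout of Smarcad1 (KO), which encodes a chromatin remodelling ATPase. Cre under the villin promoter acts in the intestinal epithelium, so the other cells of the tissue kept the gene, and the conditional line went back to 1 targeted embryonic stem cell clone. Every mouse, the controls included, had received an enriched microbiota from donor C57BL/6 females from 2 weeks before colitis was induced. Colitis was induced by dextran sulphate sodium (DSS), a polymer that injures the colon lining, given at 1% in drinking water, and tissue was taken after 15 days. The libraries numbered 3 for WT and 3 for KO in the control condition, and 5 for WT and 5 for KO with colitis, and the ages of the mice and the handling of the libraries in batches were not given in the sources used here.

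Many interleukins and colony-stimulating factors are secreted proteins that bind paired receptor chains on the cell surface. These chains activate JAK kinases and, through them, STAT transcription factors. Not all members of these families use this route. TNF and its relatives bind receptors that recruit TRAF adaptors and release NF-kB transcription factors from their inhibitors. Both routes switch on their own brakes, the SOCS proteins and the inhibitors of NF-kB, and in the inflamed gut they carry signals between immune cells, the epithelium and the stroma.

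The tables held the authors' mean of each group, as log2 RPM (read counts scaled to a common library total, not divided by gene length), and listed the genes that passed an adjusted p of 0.05 in a comparison. Values of single libraries were not used, so a mean is given without an SD, and a difference was called only by its place in a table. The words rose and fell are used for listed genes alone. A gene had to pass in at least 1 comparison to be in the tables, so the counts below describe listed genes and not the whole families. The depth recovered from the steps between low means was a geometric mean library of about 10110000 reads for WT control, 9770000 for KO control, 8000000 for WT colitis and 9870000 for KO colitis. The floor was set at 3 reads per library, which is −1.75, −1.70, −1.42 and −1.72 log2 RPM in the same order. Because libraries were seen through their mean alone, a group mean no higher than this floor is treated as if each of its libraries were there, and any fold against it uses the floor and is a lower bound. Smarcad1, of which the knockout removes only some exons, was lower in KO by 1.18 on the log2 scale in control tissue and by 1.13 in colitis.

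Most of the signalling genes were higher in colitis. In WT mice 62 of the 77 genes were listed, 80.5% against 63.1% of all genes in the tables, with 56 higher (72.7% against 36.6%) and 6 lower (7.79% against 26.4%). In KO mice 65 were listed, 84.4% against 78.4% of all genes, with 56 higher (72.7% against 44.8%) and 9 lower (11.7% against 33.6%). The colitis mean was at least 2-fold above control for 42 genes in WT (54.5% against 18.4%) and 34 in KO (44.2% against 16%), of which 40 and 30 were listed. With means under 3 reads raised to 3, the counts were 42 and 31. Median changes were 1.13 (WT) and 0.80 (KO), against 0.13 and 0.19 over all genes in the tables. The direction was the same in both genotypes for 76 genes, and 50 were listed in both, of which 46 rose and 4 fell. Another 12 were listed in WT alone and 15 in KO alone, and whether their changes differed between the genotypes was not tested.

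**Figure D1:**
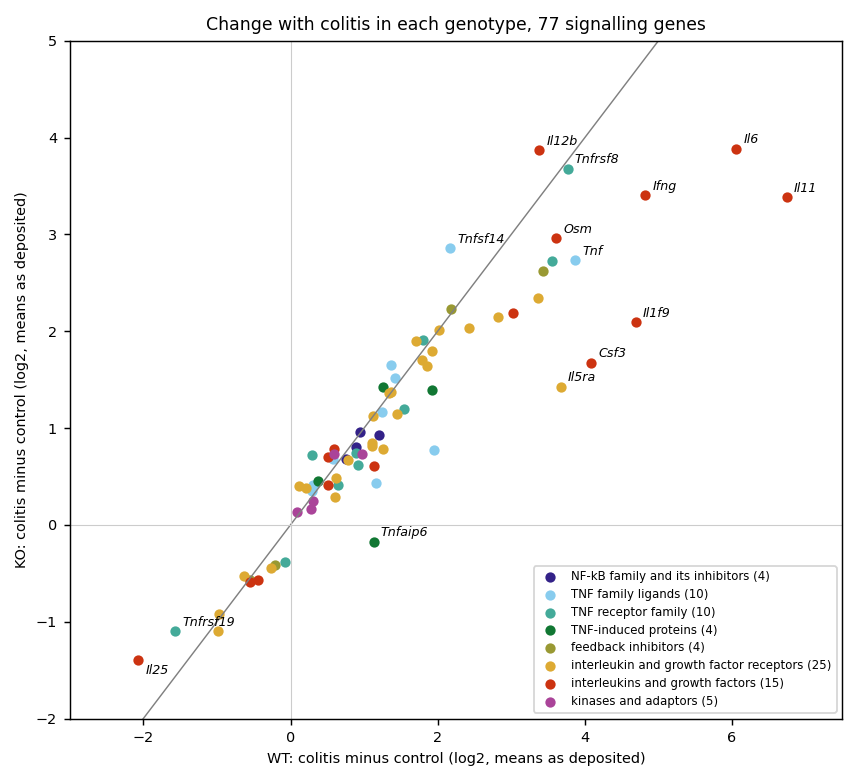
Colitis change (log2, colitis minus control, from the authors' group means) of each of the 77 signalling genes in WT (x axis) and KO (y axis), coloured by role, with the line of equal change. Means are as deposited, not raised to the floor. Il11 lies farthest below the line, and Il6, Il1f9 and Csf3 are also among the genes with a smaller change in KO.

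Genes that marked inflammatory cells moved with the signalling genes. In bulk tissue, more cells of a type and more RNA per cell cannot be told apart. Of 12 neutrophil markers, 8 were in the tables, and their summed level was 101 RPM in WT control, 107 in KO control, 391 in WT colitis and 284 in KO colitis. Ly6g alone gave 92.0, 98.2, 207 and 236 RPM of these sums, and the other 7 markers summed to 8.58, 9.17, 183 and 48.3 RPM, 3.80-fold higher in WT colitis than in KO colitis. In controls 4 of these 8 in WT and 5 in KO were at or under 3 reads, and Cxcr2 and Mmp8 had no read in any KO control library. The sum for 8 of 11 monocyte and macrophage markers was 730, 765, 1844 and 1818 RPM in the same order. For 8 of 8 T cell markers it was 30.8, 30.6, 82.8 and 90.3 RPM, and for 7 of 8 fibroblast markers 2616, 2536, 5045 and 3748 RPM. The 3 of 14 epithelial markers in the tables, Car1, Slc26a3 and Aqp8, summed to 7311, 6945, 3452 and 3396 RPM. The near equal colitis sums hid unlike genes. Car1, a carbonic anhydrase of colonic epithelium that was not listed in WT, was at 10.91 log2 RPM in WT colitis and 10.10 in KO colitis. Slc26a3 was at 9.77 and 10.36 and Aqp8 at 9.36 and 9.95, both higher in KO. The part of these cells in the changes below was not tested.

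The interleukins and growth factors included the steepest changes. Il6, Il11, Osm and Lif encode cytokines that signal through receptor complexes with the shared chain gp130. Il11 (chr7:4772373-4782857 in the tables' build, GRCm38), a cytokine made largely by stromal cells, had means of −2.53 log2 RPM in WT control, −1.32 in KO control, 4.22 in WT colitis and 2.07 in KO colitis. It rose at least 62.7-fold in WT and 10.4-fold in KO, and its WT colitis mean was the highest of the 4. Il6 (chr5:30013114-30019981), the main inducer of the acute phase response, had no read in any of the 6 control libraries and reached 2.57 log2 RPM in WT colitis and 0.44 in KO colitis. That was a rise of at least 20.0-fold in WT, where it was listed, and a mean at least 4.43-fold higher in KO colitis, where it was not. The colitis means of both genes were lower in KO than in WT, by 4.44-fold for Il11 and 4.37-fold for Il6, and neither difference was listed.

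Osm (chr11:4236420-4241026), oncostatin M, which acts on stromal cells, had means of −1.35 in WT control, −1.56 in KO control, 2.26 in WT colitis and 1.40 log2 RPM in KO colitis. It was listed in KO alone, where it rose 7.79-fold, although the WT means lay 12.2-fold apart. Lif, its neighbour on chromosome 11 at a gap of 16530 bases, rose in both genotypes, from 2.76 to 3.90 log2 RPM in WT and from 2.97 to 3.57 in KO. Their receptor chains changed less: Osmr rose by 1.11 in WT and 0.82 in KO on the log2 scale, while Lifr rose by 0.60 in WT and differed by 0.28 in KO without being listed.

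Sequence before a start site of Il6, Il11 and 2 responding genes described further on, Tnfrsf9 and Socs3, is shown because factors downstream of these cytokines act at promoters. The windows of Il11, Tnfrsf9 and Socs3 lie inside the span of the gene, before an internal start site. Each line holds the 250 bases before a RefSeq start site in GRCm38.p6, written along the gene. Capitals mark matches to a kappa B motif (GGGNNTTTCC), a STAT motif (TTCNNNGAA) or an AP-1 motif (TGANTCA), searched on both strands.
Il6, chr5:30012864-30013113, plus strand: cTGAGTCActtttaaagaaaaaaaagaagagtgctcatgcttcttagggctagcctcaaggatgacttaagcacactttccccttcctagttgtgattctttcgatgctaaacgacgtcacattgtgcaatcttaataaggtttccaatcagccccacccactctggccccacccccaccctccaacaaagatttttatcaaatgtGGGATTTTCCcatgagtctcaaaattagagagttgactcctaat
Il11, chr7:4778142-4778391, minus strand: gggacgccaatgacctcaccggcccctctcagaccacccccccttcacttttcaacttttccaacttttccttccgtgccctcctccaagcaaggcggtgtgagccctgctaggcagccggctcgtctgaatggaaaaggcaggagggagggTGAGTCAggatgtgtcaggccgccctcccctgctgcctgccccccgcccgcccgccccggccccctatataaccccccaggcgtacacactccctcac
Tnfrsf9, chr4:150927749-150927998, plus strand: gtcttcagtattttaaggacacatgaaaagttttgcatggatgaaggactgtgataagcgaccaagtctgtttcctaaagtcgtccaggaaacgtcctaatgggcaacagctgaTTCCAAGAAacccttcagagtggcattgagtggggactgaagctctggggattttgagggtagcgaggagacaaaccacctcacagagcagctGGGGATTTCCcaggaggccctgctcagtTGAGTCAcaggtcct
Socs3, chr11:117969367-117969616, minus strand: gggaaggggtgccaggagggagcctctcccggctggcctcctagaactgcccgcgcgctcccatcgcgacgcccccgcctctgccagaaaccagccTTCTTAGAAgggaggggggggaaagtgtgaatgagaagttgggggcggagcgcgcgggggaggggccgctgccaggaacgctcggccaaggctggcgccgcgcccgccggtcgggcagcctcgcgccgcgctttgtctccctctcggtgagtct

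The Il6 window held an AP-1 match at its far end and a kappa B match near the start site, GGGATTTTCC. The Il11 window held an AP-1 match alone, TGAGTCA, and the Socs3 window a STAT match alone, TTCTTAGAA. The Tnfrsf9 window held 1 match of each kind, and the matches in the 4 windows did not overlap. For Il11 and Tnfrsf9, which have 2 start sites each in the RefSeq table, the window with more matches is shown. RefSeq promoters, of 300 bases each, were matched to 58 of the 77 genes and gave 70 windows. A kappa B match was in 8.57% of these 70 windows against 1.63% of all 32851 mouse promoters in the RefSeq table, a STAT match in 20% against 8.3%, and an AP-1 match in 25.7% against 7.81%. Over the 36 windows of listed genes that rose at least 2-fold in WT, the shares were 8.33%, 22.2% and 33.3%. A match describes the letters only, and binding was not measured.

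Csf3, Il1f9 and Ifng were at or near the floor in control tissue. Csf3 (chr11:98701263-98703629), granulocyte colony-stimulating factor, had 1 read in 1 of 3 WT control libraries and none in the 3 KO control libraries. Its mean was 0.64 log2 RPM in WT colitis, at least 5.27-fold higher than in control and listed, and −1.77 in KO colitis, where 1 of 5 libraries had no read. No fold is given for KO, where both means were at or under 3 reads. Il1f9 (chr2:24186476-24193568), an interleukin 36 cytokine, is an older symbol of a gene that the rule sets aside under its present symbol, and was kept because the tables use the older one. It had no read in any control library and reached 1.20 log2 RPM in WT colitis, where it rose at least 7.75-fold. Its KO colitis mean was −1.35, at least 1.28-fold above control and not listed.

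Ifng (chr10:118441046-118445892), the interferon of T cells and natural killer cells, likewise had no read in any control library. It rose in both genotypes, at least 8.49-fold to 1.33 log2 RPM in WT and at least 3.17-fold to −0.04 in KO. Of its exon bases, 25.9% are shared on the same strand with another annotated gene, Gm49751, so their shared reads cannot be told apart.

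The cytokines that steer T helper cells were low throughout. Il12b, a subunit shared by interleukins 12 and 23, rose at least 6.40-fold in WT, from −2.45 to 0.93 log2 RPM, and at least 7.48-fold in KO, from −2.67 to 1.20. Il27, which restrains T cells, had control means of −3.44 (WT) and −3.39 log2 RPM (KO), with a single read in 1 of 3 libraries each. It rose at least 2.52-fold in WT, to −0.42 log2 RPM, and was at −1.20 in KO colitis, at least 1.41-fold above control and not listed.

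A few cytokines went the other way. Il25, the product of tuft cells, fell in WT from −1.09 log2 RPM to −3.15, with no read in any of the 5 WT colitis libraries, at least 1.26-fold lower. In KO its means were −1.65 in control, just over the floor, and −3.05 in colitis, and it was not listed. Il15, a growth factor of natural killer and memory T cells, fell from 4.26 to 3.68 log2 RPM in KO, where it was listed, and was at 4.25 and 3.70 in WT. Il17d fell in KO by 0.57 and differed by −0.44 in WT.

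The macrophage growth factors changed little by comparison. Csf1 rose by 0.51 in WT and 0.41 in KO on the log2 scale, from 5.27 and 5.34 log2 RPM, and Il34, which uses the same receptor, rose by 0.51 and 0.70. Il16, an attractant of CD4+ cells, rose by 0.78 in KO and differed by 0.60 in WT. Of the 15 interleukins and growth factors, 10 rose and 1 fell in WT and 8 rose and 2 fell in KO, with medians of 1.33 (WT) and 0.60 (KO) when means under 3 reads are raised to 3. As deposited the medians were 3.02 and 1.67, each set by a gene with control means at the floor.

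Among TNF family ligands, Tnf itself (chr17:35199381-35202007) had means of 0.16 log2 RPM in WT control, 1.04 in KO control, 4.02 in WT colitis and 3.78 in KO colitis. It rose 14.6-fold in WT and 6.65-fold in KO, and the colitis means of the genotypes were closer to each other than the control means. Tnfsf14 (LIGHT), a T cell ligand, had control means of −0.03 (WT) and −1.07 log2 RPM (KO), and colitis means of 2.14 and 1.78. It rose 4.49-fold in WT and 7.24-fold in KO, the largest difference in favour of KO among the 77 genes. In both conditions its KO mean was the lower.

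Tnfsf11 (RANKL), which drives osteoclasts and the M cells of the gut, rose 3.86-fold in WT, from −0.05 to 1.90 log2 RPM. In KO it was at 0.60 in control and 1.37 in colitis and was not listed. Tnfsf10 (TRAIL), a death ligand, rose by 1.42 in WT and 1.51 in KO on the log2 scale, and Tnfsf13b (BAFF), a survival factor of B cells, rose by 1.25 and 1.17. Tnfsf9 rose by 1.16 in WT alone, and Tnfsf8 by 1.65 in KO alone, with differences of 0.43 and 1.37 in the other genotype that were not listed.

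Tnfsf13 (APRIL) shares 60.0% of its exon bases with the read-through gene Tnfsfm13, and the antisense gene Tnfsf13os lies over the same stretch of chromosome 11. Tnfsf13 and Tnfsfm13 lie on the same strand, so their shared reads cannot be told apart. For Tnfsf13os the strand setting of the counting would have to be known, and it was not given in the sources used here. The values were 0.31, 0.29 and 0.58 for the change in WT and 0.41, 0.34 and 0.68 in KO. Of the 8 TNF family ligands other than the antisense and read-through genes, 6 rose in WT and 6 in KO, and none fell in either table.

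**Figure D2:**
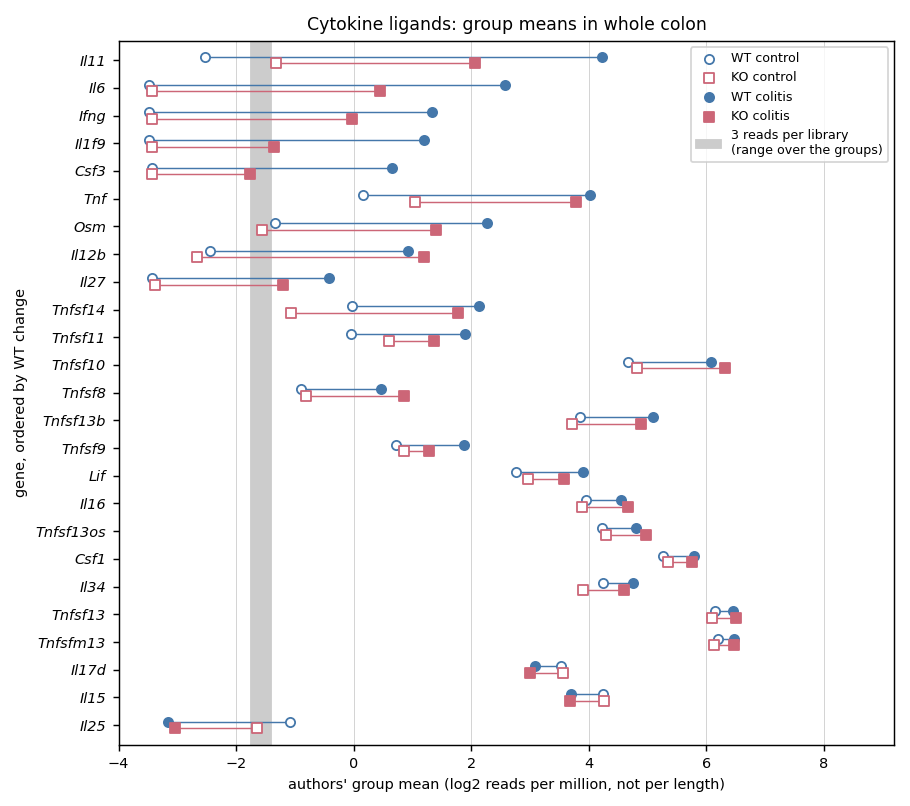
Authors' group means (x axis, log2 RPM) of the 25 interleukins, growth factors and TNF family ligands, 1 gene per line ordered by its WT change, with WT as blue circles and KO as red squares, open for control and filled for colitis, and a grey band at 3 reads per library. Il11, Il6, Il1f9 and Csf3 have a WT colitis mean at least 4 times their KO colitis mean.

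The receptors for interleukins and growth factors were present in control tissue for the most part, and 19 of 25 rose and 3 fell in each genotype. Median changes were 1.26 (WT) and 1.12 (KO). Il5ra (chr6:106710357-106749037), the eosinophil receptor for interleukin 5, was at −1.81 log2 RPM in WT control, −0.56 in KO control, 1.86 in WT colitis and 0.86 in KO colitis. It rose at least 12.2-fold in WT and 2.69-fold in KO, with the higher control mean in KO and the higher colitis mean in WT. Il12rb1, the chain shared by the receptors for interleukins 12 and 23, rose 10.3-fold in WT, from −1.14 to 2.21 log2 RPM, and 5.06-fold in KO, from −0.37 to 1.97. Il13ra2, a decoy receptor for interleukin 13, rose at least 6.65-fold in WT to 0.98 log2 RPM and 4.42-fold in KO to 1.11.

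Receptor chains of T cells and natural killer cells rose in both genotypes. The interleukin 2 receptor was higher in all 3 of its chains. Il2ra rose by 1.93 in WT and 1.80 in KO, and Il2rb by 2.02 and 2.01. Il2rg, the common gamma chain, rose by 1.12 in both. It shares 30.5% of its exon bases with Gm20489 on the same strand, and their shared reads cannot be told apart. Il21r, the receptor of interleukin 21, rose by 1.71 and 1.89, and its neighbour Il4ra, the receptor chain shared by interleukins 4 and 13, by 1.26 and 0.79. Il18rap and Il18r1, the paired chains for interleukin 18, lie 14507 bases apart, and rose by 2.42 and 1.11 in WT and by 2.03 and 0.84 in KO. Il7r, the receptor of interleukin 7, rose by 0.78 in WT and differed by 0.67 in KO without being listed.

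Receptors of myeloid cells rose as well. Csf2rb, the signalling chain for interleukin 3, interleukin 5 and GM-CSF, rose by 1.78 in WT and 1.70 in KO. Csf2rb2, a near copy of it 20386 bases away, rose by 1.86 and 1.64, and how reads were divided between them is uncertain. Il3ra, the interleukin 3 chain that pairs with them, rose by 1.34 and 1.36. Il10ra, through which interleukin 10 calms macrophages, rose by 1.45 and 1.15, Il27ra by 1.37 and 1.38, and Csf1r, the macrophage growth factor receptor, by 0.62 and 0.48.

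The receptors that fell included chains used by epithelial cells. Il22ra1, the epithelial receptor for interleukin 22, fell by 0.98 in WT and by 0.92 in KO on the log2 scale, from 6.66 and 6.51 log2 RPM. Il17rb, the receptor for interleukin 25, fell by 0.98 in WT and by 1.10 in KO, from 2.33 and 2.19. Il17re, the receptor for interleukin 17C, fell by 0.63 in WT and differed by −0.53 in KO, and Il17rd fell by 0.45 in KO and differed by −0.26 in WT. Il13ra1, at 8.67 log2 RPM in WT control the highest of the interleukin and growth factor receptors, rose by 0.40 in KO alone, as did Il15ra by 0.38.

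Of the 10 TNF receptor family genes, 7 rose and 1 fell in WT and 8 rose and 2 fell in KO. Tnfrsf8 (CD30), a receptor of activated lymphocytes, rose 13.6-fold in WT, from 0.95 to 4.71 log2 RPM, and 12.8-fold in KO, from 0.35 to 4.03. Tnfrsf9 (4-1BB, chr4:150914562-150946102), a T cell costimulator, was at −1.01 log2 RPM in WT control, −1.04 in KO control, 2.55 in WT colitis and 1.68 in KO colitis. It rose 11.8-fold in WT and 6.59-fold in KO from nearly equal control means. Tnfrsf4 (OX40), also a T cell costimulator, rose by 1.80 and 1.91 on the log2 scale.

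The receptors for TNF itself started higher. Tnfrsf1b (TNFR2) rose from 6.11 to 7.66 log2 RPM in WT and from 6.03 to 7.23 in KO, and Tnfrsf1a (TNFR1) rose by 0.64 and 0.41. Tnfrsf11b (osteoprotegerin), the decoy of RANKL, rose by 0.92 and 0.62, and Tnfrsf14, the receptor of LIGHT, by 0.89 and 0.74. Tnfrsf13b (TACI), a B cell receptor, rose by 0.72 in KO alone.

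Tnfrsf19 (TROY), known from stem cells of the gut, fell in both genotypes, from 3.24 to 1.67 log2 RPM in WT and from 3.29 to 2.20 in KO, 2.97-fold and 2.14-fold lower. Tnfrsf21 fell by 0.39 in KO and differed by −0.07 in WT.

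**Figure D3:**
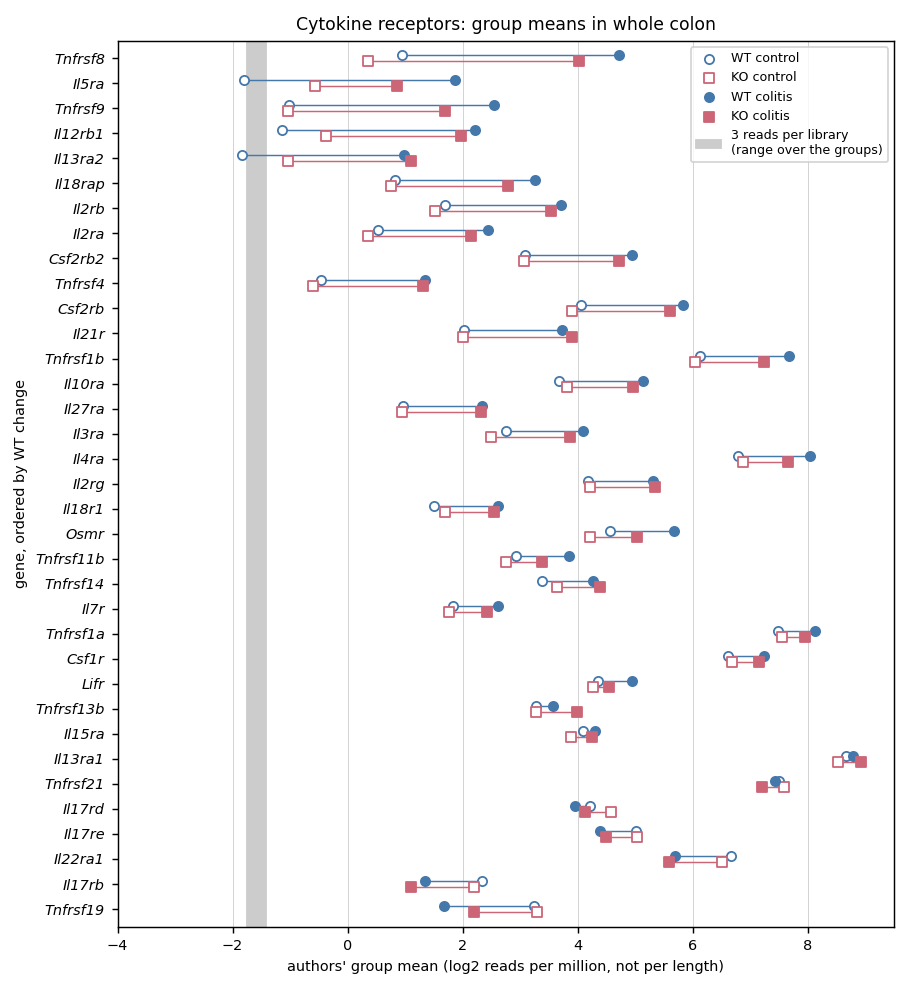
Authors' group means (x axis, log2 RPM) of the 35 interleukin, growth factor and TNF family receptors, drawn as in the plot of ligands. The lines of Tnfrsf8, Il5ra and Tnfrsf9 at the top run to higher colitis means, and those of Il22ra1, Il17rb and Tnfrsf19 at the bottom run to lower ones.

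Ligands and their receptors were compared in 15 pairs formed after the values had been seen. Each mean, as deposited and not raised to the floor, was divided by the exon length of the gene (log2 RPM per kb). Tnf, Csf1r and Tnfrsf13b each recur in another pair, so the pairs were not independent. Tnfsf11 was paired with its decoy receptor. The receptor was the higher partner in 12 pairs in WT control, 11 in KO control, 10 in WT colitis and 11 in KO colitis. The median of ligand minus receptor was −1.61 in WT control, −1.29 in KO control, −0.99 in WT colitis and −1.28 in KO colitis. With signs kept, the colitis change of the ligand was above that of the receptor in 9 of 15 pairs in each genotype. A ligand whose deposited mean was lowered more than that of its receptor, such as Il25, did not count here.

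The pairs differed in which side moved. On this per length scale Tnf minus Tnfrsf1a went from −6.65 in WT control to −3.43 in WT colitis, as the ligand changed more than the receptor. Osm minus Osmr went from −3.49 to −0.99 in the same mice. In the CD30 pair the receptor changed more, and Tnfsf8 minus Tnfrsf8 went from −1.98 to −4.38. Il25 and Il17rb were the 1 pair in which both partners were lower in WT colitis.

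**Figure D4:**
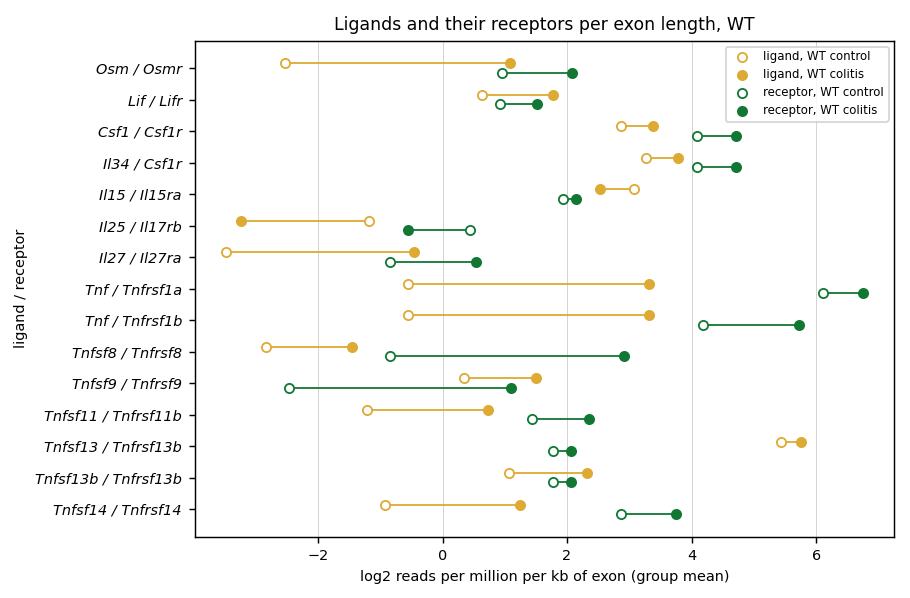
Levels of 15 ligand and receptor pairs in WT mice (x axis, log2 RPM per kb of exon), 1 pair per line, with the ligand in yellow and the receptor in green, open points for control and filled points for colitis. The ligand line is the longer in the Osm and Tnf pairs, and the receptor line in the Tnfsf8 and Tnfsf9 pairs.

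Inside the cell, the 5 kinases and adaptors had median changes of 0.30 in WT and 0.24 in KO, below the medians of both groups of ligands. Jak3, the kinase of the common gamma chain, rose by 0.97 in WT and 0.73 in KO, and the widely used Jak2 rose by 0.30 and 0.24, from 7.31 and 7.32 log2 RPM. Traf3ip3 rose by 0.59 and 0.73. Traf6, an adaptor of the interleukin 1 and Toll-like receptors, rose by 0.28 in WT and differed by 0.17 in KO, and Traf7 rose by 0.14 in KO and differed by 0.08 in WT. After subtraction of the median over all genes, the KO values of Traf6 and Traf7 and the WT values of Traf7 and Il13ra1 turned negative.

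Of the 4 genes of the NF-kB family, 3 rose in WT and 4 in KO. Rel, the lymphocyte subunit c-Rel, rose by 0.90 in WT and 0.80 in KO, and Nfkbie, an inhibitor that NF-kB itself induces, by 0.95 and 0.96. Nfkbiz, a nuclear cofactor of NF-kB at genes such as Il6, rose from 6.37 to 7.57 log2 RPM in WT and from 6.53 to 7.47 in KO. Nfkbid, a nuclear relative, rose by 0.68 in KO and differed by 0.75 in WT.

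The feedback inhibitors of JAK and STAT signalling split. Socs3 (chr11:117966079-117970047), the brake on gp130 receptors whose promoter window is shown above, was at 4.27 log2 RPM in WT control, 4.41 in KO control, 7.70 in WT colitis and 7.04 in KO colitis. It rose 10.8-fold in WT and 6.17-fold in KO. Socs1, the brake on interferon signalling, rose 4.53-fold in WT and 4.70-fold in KO, from 3.02 and 2.63 log2 RPM. Socs2, a brake on growth hormone signalling, fell by 0.55 in WT and by 0.57 in KO, and Socs7 fell by 0.42 in KO and differed by −0.21 in WT.

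Of the 4 Tnfaip genes, grouped as TNF-induced by symbol alone, all rose in WT and 3 in KO. Whether TNF induced them here was not tested. Tnfaip2 rose by 1.92 in WT and 1.39 in KO, Tnfaip8l2, a damper of immune receptor signalling, by 1.26 and 1.43, and Tnfaip8 by 0.38 and 0.46. Tnfaip6 (TSG-6, chr2:52038009-52056686), a secreted hyaluronan-binding protein, was at 0.49 log2 RPM in WT control, 0.78 in KO control, 1.62 in WT colitis and 0.60 in KO colitis. It rose 2.19-fold in WT and differed by −0.18 on the log2 scale in KO, the 1 gene of the 77 whose changes had opposite signs.

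Pathway genes whose symbols lie outside the rule were counted from lists. Of 17 STAT pathway partners, 9 were in the tables, of which 6 rose and 1 fell in WT and 7 rose and 1 fell in KO, with median changes of 0.56 and 0.49. Stat4, which acts downstream of interleukin 12, rose by 1.79 in WT and 1.70 in KO. Of 37 NF-kB and TNF pathway partners, 11 were in the tables, of which 8 rose in WT and 9 in KO and none fell, with medians of 0.65 and 0.40. Ripk3, the kinase of necroptosis, rose by 1.70 and 1.20, and Card9, an adaptor of fungal recognition in myeloid cells, by 1.58 and 1.02.

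The genotypes were then compared within each condition. The study reported less weight loss and a lower disease activity index in KO mice with colitis. It also reported less infiltration by cells stained for myeloperoxidase, its marker of invading neutrophils and monocytes. Genotype and severity of disease therefore cannot be told apart in colitis. None of the 77 genes was listed in the KO against WT table in control tissue, where 0.89% of all genes in the tables were (0.522% higher and 0.367% lower in KO), or in the table for colitis, where 1.08% were (0.696% higher and 0.387% lower). These are calls of the authors' DESeq2 test at an adjusted p of 0.05, the single tool whose calls are known here, and unadjusted values were not analysed. In control tissue the median difference of KO minus WT was 0.01 over the 77 genes and 0.005 over all genes. As deposited, the means of Il11 and Il5ra were at least 2-fold higher in KO control (1.08% of all genes), and that of Tnfsf14 alone was at least 2-fold lower (0.735%). Against the floor, Il5ra was at least 2.28-fold higher and Il11 at least 1.35-fold higher.

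In colitis the KO mean was below the WT mean for 57 of 77 genes, 74.0% against 52.7% of all genes in the tables, with a median of −0.17 against −0.01. A mean at least 2-fold lower in KO was found for 6 genes, 7.79% against 2.9% of all genes: Il1f9, Csf3, Il11, Il6, Ifng and Tnfaip6. Of these, Il1f9, Csf3, Il6 and Tnfaip6 were in the tables only through their rise in WT, a selection that favours a lower KO mean. The differences of Il1f9, Il11, Il6, Ifng and Tnfaip6 were −2.55, −2.15, −2.13, −1.37 and −1.02 on the log2 scale. The KO colitis mean of Csf3 was under the floor, and it was at least 5.14-fold lower than in WT. None was at least 2-fold higher in KO colitis, against 1.49% of all genes. Among the 8 neutrophil markers the median difference was −1.30. S100a9, a calcium-binding protein of neutrophils, differed most, at 6.36 log2 RPM in WT colitis and 3.60 in KO colitis. The markers were not alike: Ltf was nearly equal, at 2.27 and 2.25, and Ly6g was higher in KO, at 7.70 and 7.88. The part of neutrophils in the differences of the cytokines was not tested.

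The absolute colitis change was smaller in KO for 47 genes, 61% against 50.6% of all genes. These were 12 of the 12 genes listed in WT alone, 2 of the 15 listed in KO alone and 33 of the 50 listed in both. This count and those that follow thus depend in part on the comparison in which a gene was listed. The colitis change in KO minus that in WT was at most −1 for 10 genes, 13% against 4.31% of all genes, and at least 1 for 0, against 2.03%. It was −3.36 for Il11, −2.60 for Il1f9, −2.41 for Csf3, −2.24 for Il5ra, −2.18 for Il6 and −1.42 for Ifng. For Tnfaip6, Tnfsf11, Tnf and Il12rb1 it was −1.31, −1.17, −1.13 and −1.02. With control means raised to 3 reads it was −2.59 for Il11 and −2.18 for Il5ra. The control means of Il11, Il5ra, Tnf, Il12rb1, Tnfsf11 and Tnfaip6 were higher in KO than in WT, so part of each value came from the control groups. On the other side the values were 0.69 for Tnfsf14, 0.67 for Il25, 0.49 for Il12b and 0.47 for Tnfrsf19. Raised to 3 reads, those of Il25 and Il12b were 0.26 and 0.22, below Tnfrsf19 and Tnfrsf13b at 0.47 and 0.43. For Tnfsf14, KO minus WT was −1.04 in control and −0.35 in colitis, so its positive value came from the control groups. No interaction of genotype and colitis was tested, since group means alone were used.

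The difference was larger among genes with steeper changes. With means under 3 reads raised to 3, the mean change over both genotypes was above 3 for Il11, Il6, Osm, Socs3, Tnf, Tnfrsf8 and Tnfrsf9. All 7 changed less in KO, with a median difference of −0.84, and over all 84 genes in the tables with such changes the median was also −0.84. From 2 to 3 it was −0.39 for 9 genes against −0.25 for 175. For the 20 genes from 1 to 2 it was −0.10 against −0.11 for 596, and for the 30 from 0 to 1 it was −0.10 against 0.01 for 1980. Among roles the median was −0.53 for interleukins and growth factors, 0.08 for TNF family ligands, −0.13 for interleukin and growth factor receptors and −0.19 for the TNF receptor family.

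**Figure D5:**
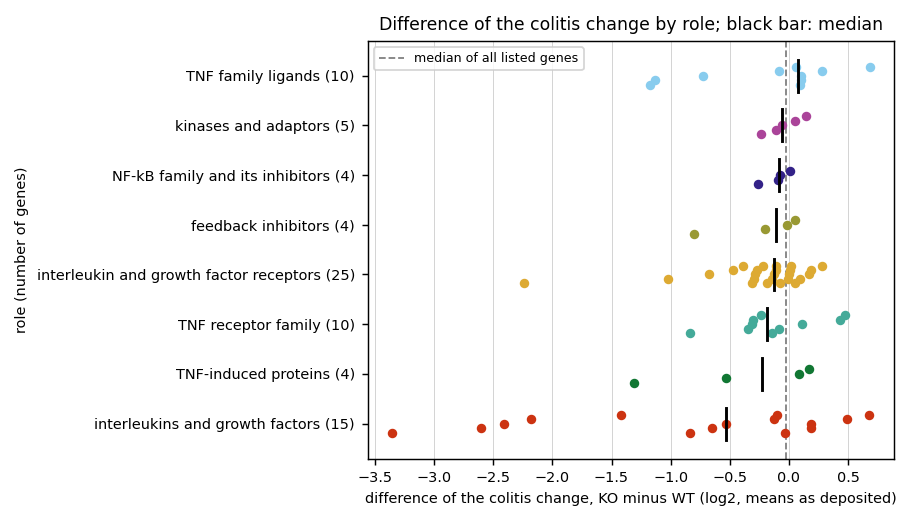
Difference of the colitis change, KO minus WT (x axis, log2, from the authors' group means), for each of the 77 genes by role (y axis, number of genes in brackets), with a black bar at the median of each role and a dashed line at the median of all listed genes. The interleukins and growth factors reach farthest to the left, down to −3.36 for Il11 (−2.59 with its control mean raised to 3 reads), and their median is −0.53.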

How the data were processed

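Whole-colon RNA-seq was available for 16 libraries. Per the submitters' notes and methods, reads were aligned to GRCm38 with HISAT2 2.1.0, reads over rRNA annotations were removed because some samples were contaminated, exonic reads were counted per gene, and pairwise comparisons were made with DESeq2. The labels describe single-end reads and the methods paired-end reads. The series text names small intestine and the sample labels colon.

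The 4 deposited tables list genes passing an adjusted p-value of 0.05. The authors computed the 4 mean columns as log2 RPM per group. The deposited p-value column (adjusted) was read only as membership, and neither its values nor any fold change of the authors were used. Zero counts had been set to 0.9 read.

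Here, changes were differences of the authors' means (Python 3.11.15, pandas 2.3.3, numpy 2.4.6). Depth was recovered from the steps between low means, a procedure tested on simulated data. The foreseen edgeR tests on single libraries could not be run on means, so no test was made. Floors cover counting error only. Members and lists were chosen with earlier results of these data known, and roles, pairs and printed promoters after values were seen. Named were the up to 5 largest rises and 2 largest falls per role, the 6 most negative and 4 most positive response differences, opposite changes, neighbours within 100 kb, and the 2 largest changes of each partner list, of which 1 is not reported here; others were added for their roles. Of the 77 genes, 21 share exon bases with another gene and 10 at least 10%. Genes in no table were not analysed here.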

Additional observations from a re-analysis of the deposited data

How the results depend on the processing

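Each of 10 results was recomputed under alternatives (71 values): 58 moved by no more than 0.2 on the log2 scale or 1.5-fold for a count, 13 moved further and 0 reversed. With the mean in place of the median, the colitis change was 1.40 in WT and 1.07 in KO and the difference between them −0.33, against 1.13, 0.80 and −0.11. The count of genes that were at least 2-fold higher in WT, 42, was 19 at a 4-fold threshold. In KO it was 34, and 52 at 1.5-fold and 17 at 4-fold. The count at least 2-fold lower in WT, 2, was 1 with means raised to 3 reads, 1 with means raised to 10 reads, 4 after centring on all genes, 5 at 1.5-fold and 1 at 4-fold. In KO it was 3, and 5 at 1.5-fold and 0 at 4-fold. The cause of these moves was not tested beyond the settings themselves. Leaving out Il1f9 (set aside by the rule under its present symbol) and Tnfsf13os, Tnfsfm13 and Csf2rb2 (which share a locus or sequence with other members) was chosen after seeing the data. No paired analysis was possible because the columns are group means and the results come from no test, and no library was left out because values of single libraries were not used here. The members of the KO against WT tables gave no value, since no member was listed there.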

Other observations

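Of 26 ligands and receptors of these families whose names fall outside the rule, 12 were in the tables, of which 6 rose and 3 fell in WT and 9 rose and 2 fell in KO. Cd40, the receptor through which T cells license antigen-presenting cells, rose by 2.08 in WT and 1.93 in KO on the log2 scale. Fasl, the death ligand of cytotoxic cells, was under 3 reads in both control means and reached −0.70 log2 RPM in WT colitis and −0.85 in KO colitis. Several of the 77 genes are neighbours in the genome. Tnfrsf1b and Tnfrsf8 lie 20266 bases apart and Il2ra and Il15ra 12096 bases apart, and in both pairs the changes were unequal, with 1.55 and 3.76 for the first pair in WT and 1.93 and 0.21 for the second. Tnfsf14 and Tnfsf9, with 81734 bases between them, differed by 2.17 and 1.16 from control in WT and by 2.86 and 0.43 in KO.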
